A study of Mus musculus with 11 samples.

Results

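Insulin and the insulin-like growth factors (IGFs) act through a small set of related genes, and 10 of them were followed here: the ligand *Igf1*, the receptors *Insr*, *Igf1r* and *Igf2r*, the receptor substrates *Irs1* and *Irs2*, and the IGF-binding protein genes *Igfbp3*, *Igfbp4*, *Igfbp5* and *Igfbp7*. They were chosen by name, as the 10 rows with these gene symbols out of 29307 genes in the count table. The rule itself uses no measured value, but the names were picked with earlier results of these data known. The counts come from RNA of sorted liver sinusoidal endothelial cells (ECs) of male C57BL/6J mice aged 10 to 12 weeks, with 1 library per mouse and no genetic change or drug in any group. One group was conventionally raised with a gut microbiota (CONV-R, n = 6), and the other was germ-free (GF, labelled Germ-free, n = 5, replicates 1, 2, 4, 5 and 6), that is, raised without microbes. The cells were enriched for CD146 on magnetic beads and then sorted as CD31+, CD105+ and CD146+ by flow cytometry. The comparison addresses whether the presence of a gut microbiota goes along with other transcript levels in this endothelium. According to the study, GF livers gave fewer sorted cells and less RNA than CONV-R livers, so yield and group cannot be told apart in this design.

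Insulin and IGF1 bind receptor tyrosine kinases, encoded by *Insr* and *Igf1r*, which pass the signal through the docking proteins IRS1 and IRS2 to PI3K, AKT and mTOR. IGF2R is a clearance receptor for IGF2 that carries no kinase. IGF-binding proteins hold IGFs in blood and tissue and so set how much ligand reaches the receptor, and IGFBP7 binds IGFs weakly and is known as a matrix protein of vessels. The liver sinusoidal endothelium is fenestrated and lies between portal blood, which brings insulin from the pancreas, and the hepatocytes.

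In GF mice, 3 of the 10 genes were higher than in CONV-R mice and none was lower at an adjusted p under 0.05. These were *Igfbp3*, 11.98-fold, *Igfbp5*, 8.98-fold, and the insulin receptor gene *Insr*, 2.40-fold. For each of these 3 genes, the lowest GF library lay above the highest CONV-R library. At an unadjusted p under 0.05, 5 members were higher by edgeR, 6 by DESeq2, 4 by limma voom and 5 by limma on the authors' log2 values. None was lower by any of them. Of the other 7 genes, 5 were tested and did not pass the threshold, and *Irs1* and *Irs2* had too few counts to be tested. Over all 12905 genes tested, 7.48% were called, 4.80% as higher and 2.67% as lower in GF, and 5.59% had groups that did not overlap. Genes were tested by quasi-likelihood in edgeR, the p-values were adjusted over all tested genes (Benjamini-Hochberg), and a gene was called at an adjusted p under 0.05. A Log2FC is the fitted log2 ratio of GF to CONV-R. Levels are given as CPM, the counts of a gene divided by the scaled total of its library and brought to the usual common library size. The p-values measure the spread between these mice.

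The 2 binding protein genes that rose are shown first by the DNA ahead of their transcription start, beside the paralogue *Igfbp4*, which did not pass the test. Each run is the 250 bases before the start that RefSeq gives on GRCm38.p6, read 5′ to 3′ on the strand of the gene: chr11:7213924-7214173 on the minus strand for *Igfbp3*, chr1:72874866-72875115 on the minus strand for *Igfbp5* and chr11:99040994-99041243 on the plus strand for *Igfbp4*. Capitals mark every match to TATNNA on either strand, a loose form of the TATA box that was picked after the sequences had been seen.
Igfbp3: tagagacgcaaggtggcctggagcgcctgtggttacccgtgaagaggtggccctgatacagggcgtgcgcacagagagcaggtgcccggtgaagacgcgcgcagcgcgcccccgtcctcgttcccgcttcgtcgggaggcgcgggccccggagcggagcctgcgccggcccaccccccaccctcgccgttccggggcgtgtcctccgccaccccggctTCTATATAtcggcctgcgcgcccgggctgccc
Igfbp5: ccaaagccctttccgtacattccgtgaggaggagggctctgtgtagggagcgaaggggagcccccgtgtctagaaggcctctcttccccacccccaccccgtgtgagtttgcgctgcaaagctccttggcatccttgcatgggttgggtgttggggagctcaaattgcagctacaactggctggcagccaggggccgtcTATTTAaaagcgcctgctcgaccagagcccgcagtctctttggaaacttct
Igfbp4: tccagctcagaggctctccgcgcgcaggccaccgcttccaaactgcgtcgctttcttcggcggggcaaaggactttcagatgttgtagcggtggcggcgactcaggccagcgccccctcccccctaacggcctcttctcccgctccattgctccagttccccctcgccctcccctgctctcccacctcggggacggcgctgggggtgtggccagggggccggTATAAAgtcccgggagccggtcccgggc

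The *Igfbp3* run holds 73.2% G and C with 32 CG pairs, that of *Igfbp4* 69.2% with 22, and that of *Igfbp5* 58.8% with 10. The median over 32851 RefSeq promoters was 52.4% with 6 CG pairs. The loose TATA match lies in 56.2% of those promoters, counting both strands, so its presence sets none of the 3 apart. On the strand of the gene it began 30 bases before the start in *Igfbp3*, where it overlaps matches on the other strand, 51 in *Igfbp5* and 28 in *Igfbp4*. GENCODE M21 puts the start of *Igfbp5* at chr1:72874884, inside the printed run. The end of that run thus lies within the gene by GENCODE, and the 51 bases hold for the RefSeq start only. The strict form TATAAA was found in *Igfbp4* and in 12.4% of all promoters. A forkhead core, TGTTTAC, and a glucocorticoid receptor half-site, AGAACA, were in none of the 9 genes with an entry, against 3.17% and 16.1% of all promoters with both strands read. The exception without an entry is *Insr*.

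*Igf1*, which encodes the growth hormone-responsive ligand (chr10:87858265-87937042, GRCm38), had the lowest level per kb of exon among the tested members. The 6 CONV-R libraries had a lowest value of 6.51, a median of 9.62 and a highest of 14.2 CPM. The GF libraries had 10.6, 14.01, 8.95, 15.3 and 49.0 CPM in replicates 1, 2, 4, 5 and 6. GF replicate 6 stood far above the rest, and the other GF libraries lay within or close to the CONV-R range. The means were 19.6 ± 16.6 CPM in GF (SD, n = 5) and 9.85 ± 2.60 CPM in CONV-R (SD, n = 6), with a Log2FC of 0.97 (95% interval 0.21 to 1.74) and adjusted p = 0.114 in edgeR's test. Without GF replicate 6 the Log2FC was 0.30, so 1 library decided its size. That library also had the highest summed level of 10 Kupffer cell markers, 931 CPM against 86.0 to 357 CPM in the other 10 libraries. The part of these markers in the *Igf1* value was not tested. *Igf2*, the fetal growth factor, had 5.31 ± 1.05 CPM in GF (SD, n = 5) and 3.69 ± 1.75 CPM in CONV-R (SD, n = 6), with a Log2FC of 0.52 and adjusted p = 0.367 in edgeR's test. The insulin genes *Ins1* and *Ins2* had 1 count each over all 11 libraries.

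*Insr* (chr8:3122061-3279617), the insulin receptor gene, had the highest level per kb of exon among the receptors of the set. In CONV-R the lowest library had 229, the median was 338 and the highest 440 CPM. In GF, replicates 1, 2, 4, 5 and 6 had 1461, 785, 478, 548 and 788 CPM. Every GF library was above every CONV-R library, with replicate 1 the highest by a wide margin. The means were 812 ± 389 CPM in GF (SD, n = 5) and 338 ± 68.9 CPM in CONV-R (SD, n = 6), and the Log2FC was 1.27 ± 0.23 (SE, 95% interval 0.78 to 1.75) at adjusted p = 0.00266 in edgeR's test. Without GF replicate 1 the Log2FC was 0.94 and the gene was still called, at adjusted p = 0.00335 in edgeR's test. The annotation places the short gene *Gm16180* within the same span, and it had 125 counts in GF and 37 in CONV-R against 45583 and 25202 for *Insr*.

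*Igf1r* (chr7:67952827-68233668), the receptor for IGF1, did not follow *Insr*. Its CONV-R libraries had a lowest value of 107, a median of 128 and a highest of 135 CPM. The GF replicates had 135, 132, 163, 127 and 155 CPM. The groups overlapped, and GF replicates 4 and 6 were the libraries above the CONV-R range. The Log2FC was 0.18 ± 0.10 (SE, 95% interval -0.04 to 0.40), at adjusted p = 0.316 in edgeR's test. To compare the receptors without any scaling between libraries, the ratio of *Insr* to *Igf1r* counts was taken within each mouse. It ran from 1.78 to 4.09 in CONV-R and from 2.93 to 10.8 in GF. On the log2 scale, with 0.5 added to each count, the mean ratio was 2.40 ± 0.69 in GF (SD, n = 5) and 1.41 ± 0.39 in CONV-R (SD, n = 6), a difference of 1.00 (two-sided exact permutation test over 462 splits of the mice, p = 0.0108, adjusted over 2 ratios p = 0.0216). The ranges of the ratio overlapped between the groups, although the ratio differed in the test.

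*Igf2r* (chr17:12682406-12769664), the clearance receptor for IGF2, lay between the other receptors in size of change. CONV-R libraries had a lowest value of 15.7, a median of 27.6 and a highest of 34.6 CPM. The GF replicates had 41.0, 46.9, 36.8, 32.4 and 43.9 CPM. GF replicate 5 was the only GF library within the CONV-R range. The Log2FC was 0.54 ± 0.18 (SE, 95% interval 0.17 to 0.91) and the adjusted p in edgeR's test was 0.0723, so the gene was not called. DESeq2 gave a Log2FC of 0.54 at adjusted p = 0.0402, and edgeR's test without GF replicate 5 gave 0.60 at adjusted p = 0.0477. *Airn*, a noncoding RNA read from the opposite strand across part of *Igf2r*, had 238 counts in GF and 435 in CONV-R. How strand was set in counting is not given in the sources used here, so reads of these genes, as those of *Igf1* with *Igf1os* and *Igfbp7* with *Polr2b*, cannot be told apart where they overlap.

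The docking protein genes *Irs1* (chr1:82233101-82291416) and *Irs2* (chr8:10984681-11008458) were near the limit of detection and fell below the filter for the test. *Irs1* had 41 counts in all of GF and 21 in all of CONV-R. Its level was 0.52, 1.55, 0.29, 1.45 and 0.41 CPM in the GF replicates and 0.12 to 0.47 CPM in CONV-R with a median of 0.22 CPM. GF replicates 1, 2 and 5 lay above the CONV-R range, replicate 1 only just, and replicates 4 and 6 lay within it (two-sided exact permutation test, unadjusted p = 0.0238). DESeq2 and edgeR without the filter did not call it, with adjusted p-values of 0.179 and 0.324. *Irs2* had 67 counts in GF, of which 38 were in replicate 1 and 23 in replicate 2, and 30 in CONV-R. It was at 0 in GF replicate 4 and CONV-R replicate 2, where a count of 0 allows up to 0.286 and 0.205 CPM (3 counts, counting error only). The two-sided exact permutation test of *Irs2* gave p = 0.255. Within mice, the log2 ratio of *Irs2* to *Irs1* was -0.39 ± 2.07 in GF (SD, n = 5) and -0.10 ± 2.16 in CONV-R (SD, n = 6), a difference of -0.30 that was far inside the spread (two-sided exact permutation test, p = 0.814, adjusted p = 0.814). The difference in *Irs2* was within the spread between the mice, whose GF libraries ran from 0 to 38 counts, and the one in *Irs1* passed the unadjusted exact permutation test but no test adjusted over all genes. Both genes are annotated with 2 exons, most of the coding sequence lying in one. The count table lists 1 of 1344 protein-coding genes with 1 exon but 1418 of 1932 with 2, and the part of such a filter in these low counts was not tested.

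*Igfbp3* (chr11:7206086-7213923), which encodes the main IGF carrier of blood, had the largest Log2FC of the set. CONV-R libraries had a lowest value of 0.068, a median of 2.46 and a highest of 14.2 CPM. GF replicates 1, 2, 4, 5 and 6 had 29.2, 48.8, 22.3, 76.3 and 86.4 CPM. No library of one group came within the range of the other, yet the CONV-R libraries themselves ran from 1 count in replicate 2 to 176 counts in replicate 5. The means were 52.6 ± 28.2 CPM in GF (SD, n = 5) and 4.33 ± 5.26 CPM in CONV-R (SD, n = 6). The Log2FC was 3.58 ± 0.64 (SE, 95% interval 2.23 to 4.94) at adjusted p = 0.00249 in edgeR's test. Leaving out CONV-R replicate 5 raised the Log2FC to 4.45, and without CONV-R replicate 2 it was 3.31. The highest value over all settings was 4.60, from limma voom.

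*Igfbp5* (chr1:72857932-72874884), whose product binds IGFs and extracellular matrix, was the member with the smallest adjusted p. CONV-R libraries had a lowest value of 9.21, a median of 19.4 and a highest of 47.4 CPM. The GF replicates had 295, 159, 136, 143 and 383 CPM. All GF libraries were above all CONV-R libraries, with replicates 1 and 6 the highest in GF and replicates 5 and 6 the highest in CONV-R. The means were 223 ± 110 CPM in GF (SD, n = 5) and 24.8 ± 16.7 CPM in CONV-R (SD, n = 6), and the Log2FC was 3.17 ± 0.41 (SE, 95% interval 2.31 to 4.03) at adjusted p = 0.000147 in edgeR's test. CONV-R replicate 5 had the highest level of *Igfbp3*, *Igfbp5* and *Insr* in its group, and GF replicate 6 had the highest level of *Igfbp3* and *Igfbp5* in GF.

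*Igfbp4* (chr11:99041244-99054392), the gene of a soluble inhibitor of IGF action, was read at similar levels in both groups. CONV-R libraries had a lowest value of 207, a median of 245 and a highest of 332 CPM, and the GF replicates 320, 232, 420, 245 and 344 CPM. *Igfbp7* (chr5:77349240-77408041) had the highest level per kb of exon of all members, with a lowest value of 1593, a median of 1768 and a highest of 3265 CPM in CONV-R and 1999, 1447, 3602, 2002 and 2468 CPM in GF. The groups overlapped for both genes, and replicate 4 was the highest GF library for each. The Log2FC was 0.26 for *Igfbp4* (95% interval -0.09 to 0.62, adjusted p = 0.370 in edgeR's test) and 0.17 for *Igfbp7* (95% interval -0.28 to 0.62, adjusted p = 0.690 in edgeR's test). These intervals leave room for a change of up to 0.62 on the log2 scale, less than the lower ends for *Igfbp3* and *Igfbp5*. Without GF replicate 4 the Log2FC of *Igfbp7* turned to -0.05.

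**Figure D1:**
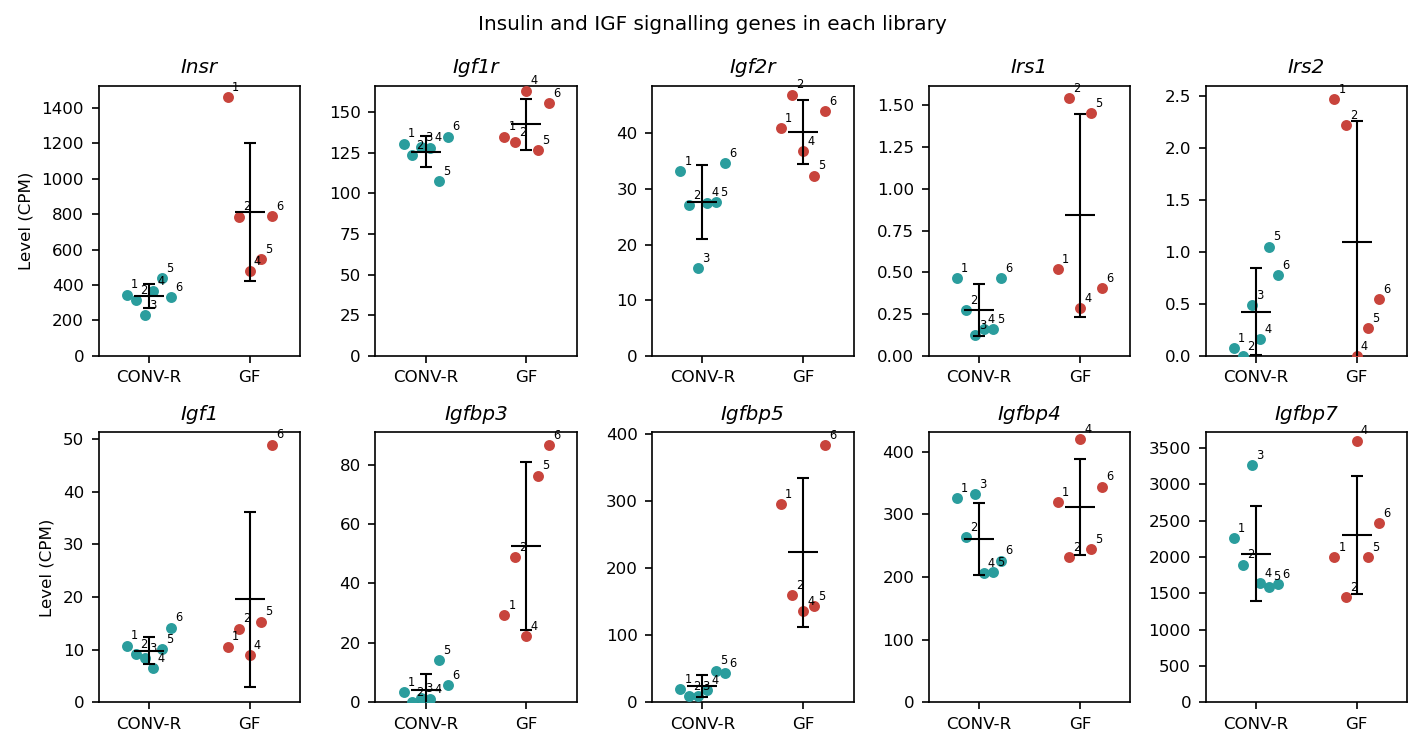
Level of each of the 10 genes in every library, in CPM on a linear axis from 0 with its own scale per gene; points are mice numbered by replicate, the black line is the group mean and the bar its SD, cut at 0. The GF points of *Insr*, *Igfbp3* and *Igfbp5* all lie above the CONV-R points, those of the other 7 genes overlap with them, and GF replicate 6 stands alone for *Igf1* at 49.0 CPM.

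**Figure D2:**
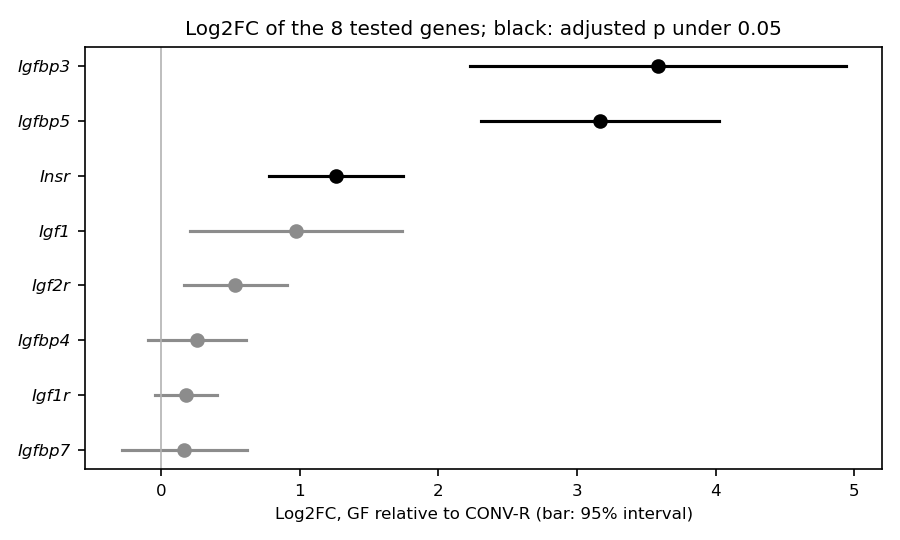
Log2FC of the 8 tested genes (GF relative to CONV-R, horizontal axis) with the 95% interval as a bar, ordered by size; black marks an adjusted p under 0.05 and grey the rest. The 3 black intervals begin at 0.78 or above, those of *Igf1* and *Igf2r* begin above 0 but did not pass after adjustment, and those of *Igfbp4*, *Igf1r* and *Igfbp7* include 0.

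All 8 tested members had a positive Log2FC, with a median of 0.76 against -0.01 over all tested genes. Since the members were named with earlier results of these data known, this is a description and no test of the set.

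The genes also differed in level from each other, which was compared as CPM per kb of exon. In CONV-R the order was *Igfbp7* at 1693, *Igfbp4* at 58.9, *Insr* at 24.6, *Igf1r* at 7.47, *Igfbp5* at 4.12, *Igf2r* at 2.97, *Igfbp3* at 1.38, *Igf1* at 0.994, *Irs2* at 0.0674 and *Irs1* at 0.0301 CPM per kb. The first 3 steps of this order were clear in every library, while *Igf1r*, *Igfbp5*, *Igf2r* and *Igfbp3* each overlapped with the next gene, as did *Irs2* with *Irs1*. *Igf1* was above *Irs2* in every library. In GF, *Igfbp5* at 37.2 and *Igfbp3* at 16.8 CPM per kb moved up to ranks 4 and 5, ahead of *Igf1r* at 8.48, *Igf2r* at 4.32 and *Igf1* at 1.98. *Igfbp4* at 70.7, *Insr* at 59.1, *Igfbp5* and *Igfbp3* each overlapped with the next gene, as did *Igf2r* with *Igf1* and *Irs2* with *Irs1*. *Igf1r* did not overlap with *Igf2r*, nor *Igf1* with *Irs2*, and *Igfbp7* at 1905 CPM per kb stayed apart. *Irs2* at 0.174 and *Irs1* at 0.0921 CPM per kb were again last.

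**Figure D3:**
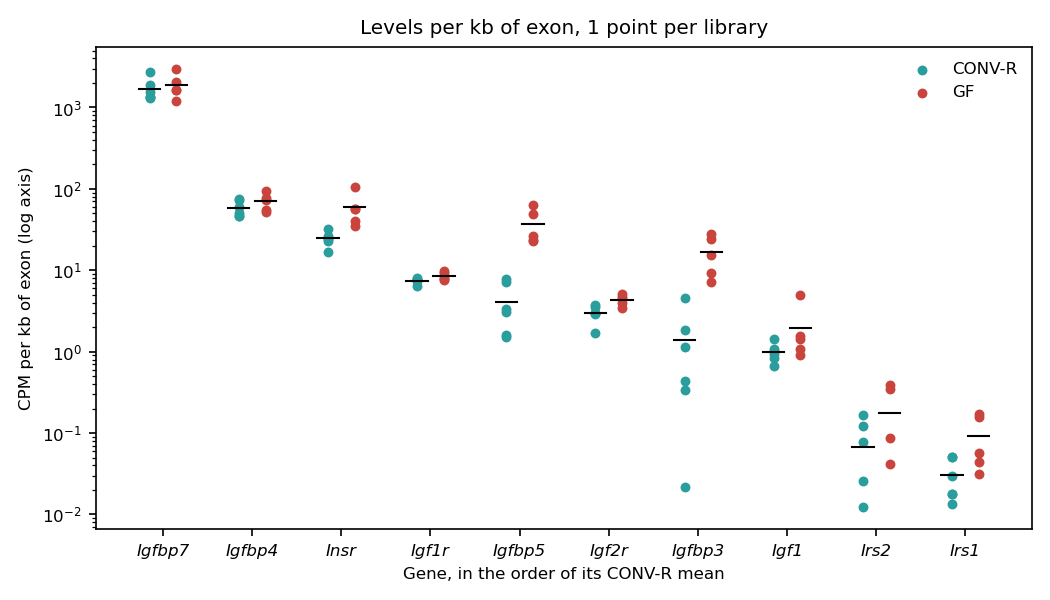
Level per kb of exon of the 10 genes on a log axis, ordered by the CONV-R mean; each point is a library, the black line is the group mean, and the 2 libraries with no *Irs2* count cannot be drawn on this axis. *Igfbp3* and *Igfbp5* lie among the lower genes in CONV-R and above *Igf1r* by their means in GF.

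Beyond the 10 genes, the pathway was read from 6 lists that hold 80 genes with the members and 70 without them. Of the 70, 58 were tested, and 5 were higher and 2 lower in GF, or 12.1% against the background of 7.48%, with a median Log2FC of 0.05. PI3K subunits, AKT kinases, the AKT activator gene *Pdpk1*, opposing phosphatases and the AKT inhibitor gene *Trib3*, 17 genes that were all tested, included none that was called by edgeR's test, DESeq2 or limma (median Log2FC 0.01). At an unadjusted p under 0.05, edgeR, DESeq2 and limma voom each had 1 gene and limma on the authors' log2 values had 2. The closest in edgeR's test was *Akt1* with a Log2FC of 0.39 and adjusted p = 0.0904.

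Among genes that set the supply of free IGF, *Stc1* rose. Its product, stanniocalcin-1, is known to block the protease PAPP-A, which cleaves binding proteins. Its level was 16.8 ± 5.36 CPM in GF (SD, n = 5) and 4.40 ± 0.912 CPM in CONV-R (SD, n = 6), with a lowest GF library of 9.81 above the highest CONV-R library of 5.74 CPM. The Log2FC was 1.93 ± 0.24 (SE) at adjusted p = 0.000106 in edgeR's test. *Htra1*, a protease that cleaves binding proteins, had a Log2FC of -0.07 and adjusted p = 0.917 in edgeR's test. The other 7 of the 9 genes in this list, *Igfbp1*, *Igfbp2*, *Igfbp6*, *Igfals*, *Pappa*, *Pappa2* and *Stc2*, had too few counts for the test. Of these, *Stc2* had 44 counts in GF and 10 in CONV-R, with means of 0.797 and 0.131 CPM (two-sided exact permutation test, unadjusted p = 0.0108). DESeq2 had 2 genes of the list higher at an unadjusted p under 0.05 and called 1.

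Of 15 substrates, adaptors and inhibitors of the receptors other than *Irs1* and *Irs2*, 14 were tested, 2 were lower in GF and none was higher by edgeR's test. At an unadjusted p under 0.05, edgeR had 2 higher and 3 lower. DESeq2 called 1 as higher and 2 as lower. *Socs3*, whose product is a feedback inhibitor of cytokine and insulin receptor signalling, was at 2.00 ± 1.38 CPM in GF (SD, n = 5) and 5.45 ± 0.853 CPM in CONV-R (SD, n = 6), with the highest GF library at 4.35 just under the lowest CONV-R library at 4.42 CPM. Its Log2FC was -1.39 ± 0.37 (SE) at adjusted p = 0.0275 in edgeR's test. *Sh2b2*, an adaptor of the activated receptor, was at 13.3 ± 2.63 CPM in GF (SD, n = 5) and 24.3 ± 8.75 CPM in CONV-R (SD, n = 6), and the groups overlapped. Its Log2FC was -0.87 ± 0.23 (SE) at adjusted p = 0.0261 in edgeR's test. Neither call was firm. *Sh2b2* was lost without GF replicate 2 or 4 (adjusted p of 0.0621 and 0.0579 in edgeR's test), and *Socs3* without any one of CONV-R replicates 4 and 5 and GF replicates 2, 4 and 6 (adjusted p of 0.0564 to 0.0649 in edgeR's test). *Shc1* and *Sos1*, adaptors toward RAS, had groups that did not overlap, with Log2FC values of 0.42 and 0.19, and did not pass the test.

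Among 25 effectors of AKT and mTOR, 24 were tested, 4 were higher in GF and none was lower by edgeR's test, with a median Log2FC of 0.12. At an unadjusted p under 0.05, edgeR had 8 higher and none lower. DESeq2 called 6 as higher and none as lower, with 8 higher and 1 lower at that unadjusted p. *Ddit4*, whose product REDD1 restrains mTOR complex 1, had a lowest value of 2.90, a median of 9.43 and a highest of 10.6 CPM in GF and lay between 0.205 and 1.69 CPM in CONV-R. The groups did not overlap, and the Log2FC was 3.43 ± 0.51 (SE) at adjusted p = 0.000586 in edgeR's test. It was 2.08, still called, in limma on the authors' log2 values. *Eif4ebp2*, which encodes a repressor of cap-dependent translation, was at 223 ± 37.1 CPM in GF (SD, n = 5) and 124 ± 26.9 CPM in CONV-R (SD, n = 6), with a Log2FC of 0.85 ± 0.15 (SE) and adjusted p = 0.00211 in edgeR's test. Its groups did not overlap either. *Sesn2*, the gene of a leucine sensor upstream of mTOR complex 1, had a Log2FC of 1.09 ± 0.22 (SE) and adjusted p = 0.00588 in edgeR's test, and *Foxo3*, which encodes a transcription factor that AKT keeps out of the nucleus, 0.73 ± 0.18 (SE) and 0.0199. The groups of *Sesn2* and *Foxo3* overlapped, and without GF replicate 1 *Foxo3* was no longer called, at adjusted p = 0.0614 in edgeR's test. *Foxo1*, which encodes the FOXO factor best known from insulin action in liver, had a Log2FC of 0.11 and adjusted p = 0.646 in edgeR's test.

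**Figure D4:**
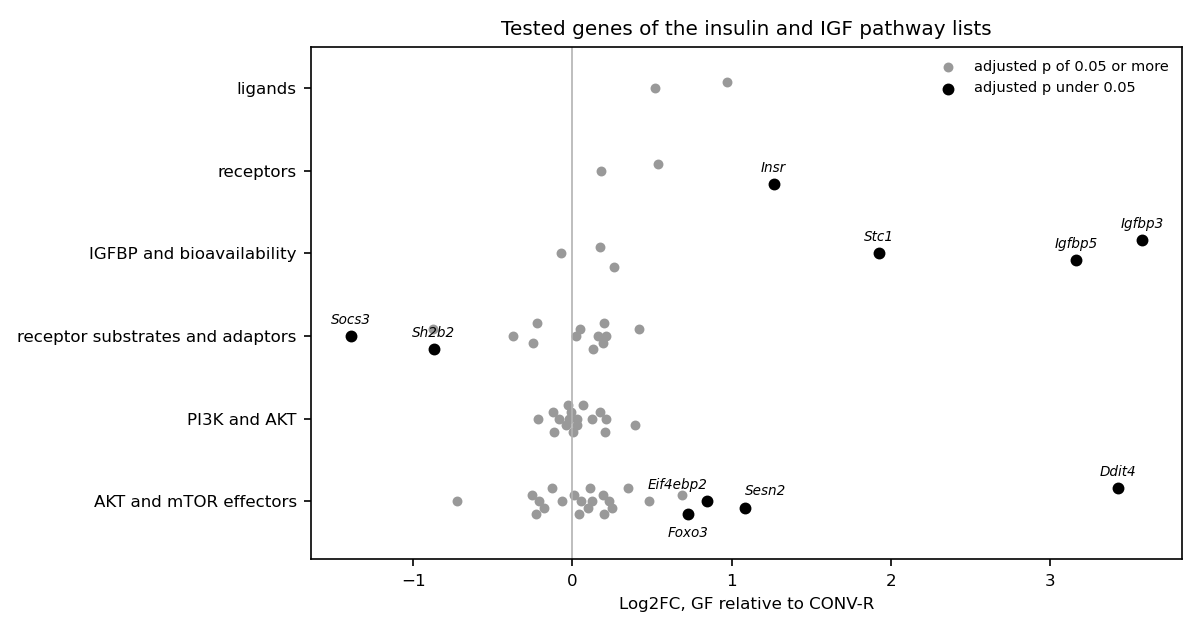
Log2FC (GF relative to CONV-R) of the 66 tested genes of the 6 pathway lists, members included, 1 row per list; black points with names have an adjusted p under 0.05 and grey points do not. The 17 PI3K and AKT genes are all grey and lie close to 0, and the points farthest to the right are *Igfbp3*, *Ddit4* and *Igfbp5*.

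The label of the cells was checked against markers. The summed level of 10 sinusoidal endothelial markers was 30949 to 42434 CPM in GF and 31990 to 38340 CPM in CONV-R, with 0 called by edgeR's test, DESeq2 or limma and 4 higher at an unadjusted p under 0.05. The genes of the sort markers, *Pecam1*, *Eng* and *Mcam*, were not called either, with 2 higher at that unadjusted p. GF replicate 2 had 22674 genes with a count against 15456 to 18495 in the other libraries, and without it the same number of members, 3, was called. Libraries held 7242717 to 16164588 counts.

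Markers of other liver cells moved with the groups in part. In bulk RNA, fewer cells of a type and less RNA per cell cannot be told apart. The 10 Kupffer cell markers summed to 197 to 931 CPM in GF and 86.0 to 222 CPM in CONV-R, and 7 of the 10 were called as higher, among them *Clec4f* with a Log2FC of 1.55 and *Vsig4* with 1.31 (two-sided exact permutation test of the sum, p = 0.00866, adjusted over 10 lists p = 0.0289). The 5 cholangiocyte markers summed to 13.6 to 36.8 CPM in GF and 0.137 to 8.96 CPM in CONV-R, with 1 of 2 tested genes called, *Spp1* (by exact two-sided permutation p = 0.00216, which this design cannot go below, adjusted p = 0.0216). Of these markers, only *Spp1* had groups that did not overlap. *Krt7*, *Krt19*, *Epcam* and *Sox9* were each at 0 in at least 1 GF library. Their groups overlapped (two-sided exact permutation test, unadjusted p of 0.0671 to 0.193). The separation of the sums thus did not hold for these markers taken singly. In GF, the keratins *Krt7* and *Krt19* had means of 0.852 ± 1.24 and 4.52 ± 5.72 CPM (SD, n = 5). In CONV-R their means were 0.204 ± 0.143 and 0.593 ± 0.504 CPM (SD, n = 6). The 5 smooth muscle markers summed to 8.76 to 13.8 CPM in GF and 6.88 to 9.37 CPM in CONV-R, with 2 tested and 0 called, also at an unadjusted p under 0.05 and by DESeq2 or limma (two-sided exact permutation test, p = 0.00433, adjusted p = 0.0216). No marker of these 3 lists was at 0 in all libraries. The part of these cell types in the rise of *Igfbp3*, *Igfbp5* and *Insr* was not tested. Without GF replicate 6, the library highest in Kupffer cell and cholangiocyte markers, the Log2FC was 3.33 for *Igfbp3*, 2.89 for *Igfbp5* and 1.28 for *Insr*, against 3.58, 3.17 and 1.27 with it. The remaining GF libraries held 197 to 357 CPM of Kupffer cell and 13.6 to 26.9 CPM of cholangiocyte markers. Leaving out that library thus did not remove the group difference in these sums, and no conclusion on the part of these markers is drawn from it.

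Stellate cells and fibroblasts are a known source of IGF-binding proteins in liver. Their 10 markers summed to 2.29 to 12.7 CPM in GF and 5.06 to 10.9 CPM in CONV-R (two-sided exact permutation test, p = 0.913, adjusted p = 0.913). *Lrat* was at 1.89 CPM in GF and 4.92 CPM in CONV-R, and *Reln*, below the filter, at 1.69 and 0.711 CPM. The 2 genes tested were *Lrat* and *Dcn*, with none called by edgeR's test. *Lrat*, the highest of the 10 in CONV-R, and *Lum* had lower means in GF and the other markers higher means. The sum thus mixes genes that went opposite ways. *Lrat* was lower at an unadjusted p under 0.05 in edgeR, and DESeq2 and limma voom each called 1 gene of the list as lower. In the other direction, DESeq2 had 3 genes higher at an unadjusted p under 0.05 and called none of them. The untested *Col1a1* was at 0.375 CPM in GF and 0.0357 CPM in CONV-R (two-sided exact permutation test, unadjusted p = 0.0433) and *Pdgfrb* at 0.4999 and 0.0522 CPM (unadjusted p = 0.119, same exact test). The part of these cells in the rise of *Igfbp3* and *Igfbp5* was not tested. Hepatocyte markers summed to 28.8 to 68.4 CPM in GF and 23.8 to 60.9 CPM in CONV-R (p = 0.461, adjusted p = 0.512, same exact test). The 8 markers of pericentral and large vessel endothelium, which include the venous *Rspo3* and *Vwf* and the arterial *Efnb2*, summed to 1571 to 2789 CPM in GF and 1439 to 1855 CPM in CONV-R (p = 0.0455, adjusted p = 0.114, same exact test). Of the 8, 1 was called, *Ltbp4*, at 1141 CPM in GF and 765 CPM in CONV-R (Log2FC 0.58, adjusted p = 0.0353 in edgeR's test). The Log2FC was positive for *Wnt2*, *Vwf* and *Efnb2* and negative for *Rspo3* (-0.82), *Selp*, *Wnt9b* and *Sox17*, none of which was called. The highest of these sums was that of GF replicate 1, which also had the highest *Insr*. Lymphocyte and red cell markers lay at 0.952 to 6.24 and 4.88 to 23.8 CPM in GF and at 4.10 to 10.6 and 18.8 to 36.1 CPM in CONV-R (adjusted p of 0.133 and 0.117, same exact test).

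**Figure D5:**
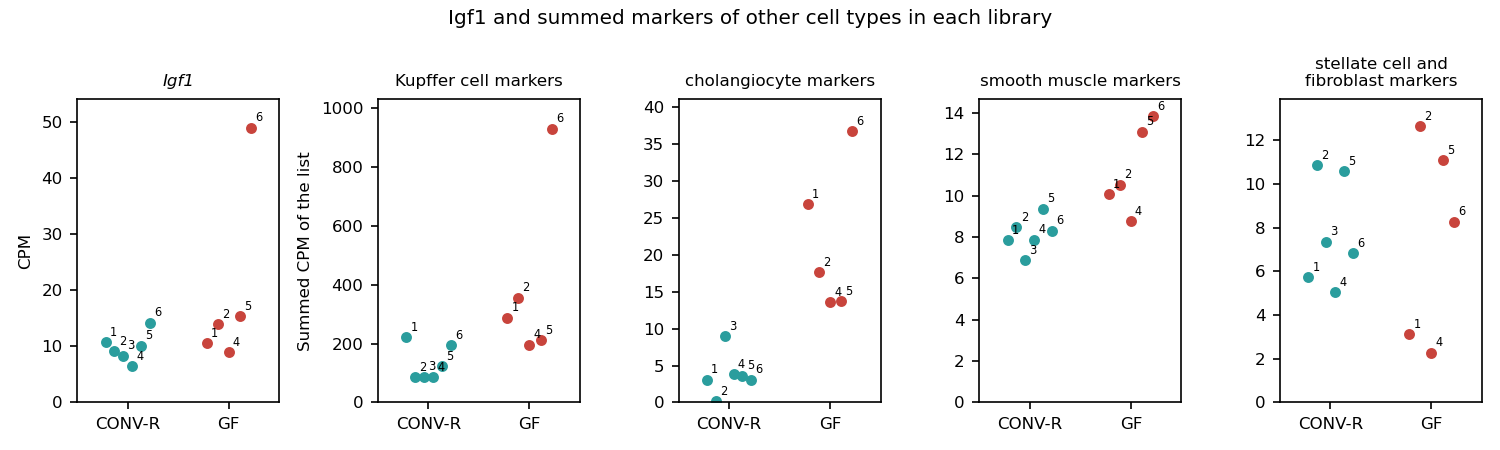
*Igf1* and the summed markers of Kupffer cells, cholangiocytes, smooth muscle, and stellate cells with fibroblasts in every library, in CPM on linear axes from 0 with a scale for each panel; points are mice numbered by replicate. GF replicate 6 is highest for *Igf1*, Kupffer cell, cholangiocyte and smooth muscle markers, while the stellate cell and fibroblast sums of the groups overlap.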

How the data were processed

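RNA of sorted liver ECs from 6 CONV-R and 5 GF mice was amplified and read as 50-base single ends, 1 library per mouse. Per the study's methods, reads were trimmed with Trim Galore, mapped to GRCm38 with STAR and counted with featureCounts, and 1 GF library with few reads was left out. Per the labels the kit was TruSeq RNA, while the methods name whole-transcriptome amplification and TruSeq DNA Nano. The annotation release and strand setting are not given in the sources used here. The authors deposited raw counts and a table of normalized log2 values. The counts were tested with edgeR 4.0.16 (filterByExpr, TMM scaling, quasi-likelihood test, Benjamini-Hochberg adjustment, R 4.3.3). Alternatives were DESeq2 1.42.0, limma 3.58.1 (voom, and on the authors' log2 values), other filters and scalings, a replicate block and leaving out each library. Of 29307 genes listed, 12905 were tested. Single values were compared by exact permutation over 462 splits of the mice, with a smallest two-sided p of 0.00216. Depth was 7242717 to 16164588 counts, so a count of 0 allows 0.195 to 0.407 CPM (3 counts, counting error only). Libraries of a group differed by more than sampling noise, with a chi-square of at least 8.76 per degree of freedom. Exon lengths and positions came from GENCODE M21 (GRCm38), promoters from RefSeq, matched by symbol for 9 of 10 genes. Code was tested on simulated data. The members, pathway lists and marker lists were chosen with earlier results of these data known. All 10 members are named, and of the pathway lists every gene with an adjusted p under 0.05. Other genes named were chosen after their values were seen, apart from the first 2 of each marker list and the sort markers.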

Additional observations from a re-analysis of the deposited data

Results flagged for a closer look

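The level of *Igf1* in GF replicate 6, 49.0 CPM, stood apart from the other 4 GF libraries, of which the nearest had 15.3 CPM, so that the gap made up a share of 0.84 of the range of the group. This was the 1 value that passed Dixon's test at the 95% level among 20 groups of libraries, 10 genes in 2 conditions, and chance alone marks about 1 in 20 groups. The same library had the highest summed Kupffer cell markers, 931 CPM. Without it, the Log2FC of *Igf1* was 0.30 at adjusted p = 0.507 in edgeR's test.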

How the results depend on the processing

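*Insr* and *Igfbp5* kept their direction and their call under all 20 alternatives that were fitted, and *Igfbp3* under the 19 that could hold it, since a minimum of 10 counts in every library removes it. The size of the Log2FC moved more, to 4.60 for *Igfbp3* in limma voom and to 2.08 for *Ddit4* in limma on the authors' log2 values. The number of members called was 2 under that minimum, 4 with DESeq2 (adding *Igf2r*), 4 with no filter on low counts (adding *Igf1*, Log2FC 0.95, adjusted p = 0.0287 by edgeR), 4 without GF replicate 5 (adding *Igf2r*) and 3 otherwise. Over all genes, 965 were called by edgeR and 1527 by DESeq2, 956 of them by both, and leaving out 1 library gave 622 (without GF replicate 6) to 1260 (without GF replicate 5), with 625 without CONV-R replicate 4. *Igfbp7*, not called, turned to -0.050 without GF replicate 4 (leave-one-out range -0.05 to 0.35). The log2 ratio of *Irs2* to *Irs1* had no stable sign, from -0.94 to 0.31 over single libraries left out, and could not be taken without an added count because of zeros. The ratio of *Insr* to *Igf1r* differed by 0.74 to 1.21 with 1 library left out. The cause was not tested for any of these.

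Replicate numbers are shared by 5 pairs of different mice. Deviations of same-numbered libraries correlated over 0.1 in 1 of 5 pairs, and a library correlated best with its own number in 2, so the numbers were not taken as pairing. A fit with the number as a block called 1094 genes, 3 members and 11 pathway genes, against 928, 3 and 10 in these libraries without the block, an alternative chosen after seeing the data. With the block the ratio of *Insr* to *Igf1r* differed by 0.88 (exact sign-flip test, p = 0.0625, the smallest that 5 pairs allow) and that of *Irs2* to *Irs1* by 0.041. *Irs1* and *Irs2* rest on 41 and 67 counts in GF.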
